A study of Homo sapiens with 5 samples.

Results

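The cathepsins are the proteases of the lysosome. The genes described here are CTSC, 6 other cysteine cathepsins of the papain family (CTSB, CTSH, CTSL, CTSS, CTSZ and CTSO), the serine carboxypeptidase CTSA, the aspartic protease CTSD and the asparaginyl endopeptidase LGMN. The 10 members were chosen by name after CTSC had been seen to read far lower in all integrin-transfected populations than in MP2-mock cells, so the CTSC values below describe that choice and no test was made of them. Each member was represented by all probe sets that the platform annotation assigns to it alone, 20 probe sets for 10 of the 19775 genes on the array.

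The cells were MIAPaCa2, an established human line of poorly differentiated pancreatic ductal adenocarcinoma (PDAC), hybridised once per stably transfected population to an Affymetrix array, 5 arrays in all. MP2-mock cells were the drug-selected control cells without an integrin construct. MP2-α2/TC cells expressed the α2 integrin, a collagen receptor subunit, from a cytomegalovirus promoter and were grown on standard plastic, and MP2-α2/CI cells were the same panned population grown on collagenI. MP2-α2Δ cells expressed α2 without its cytoplasmic domain on collagenI, and MP2-α9α2 cells expressed a chimera of the α9 ectodomain and transmembrane domain with the α2 cytoplasmic domain on the FNIII domain of tenascin. Coatings were 25 μg/mL collagenI or 10 μg/mL tenascin fragment, all 5 populations were kept under a selection drug (zeocin for the α2 constructs, G418 for the chimera), and cells were harvested at about 70% confluence. The α2, α2Δ and α9α2 cells had been enriched as populations by panning on their substrate, and construct, substrate and drug differed together between some of them. No array of untransfected MIAPaCa2 cells was analysed here, so that a gain in MP2-mock cells and a loss in the other populations cannot be told apart.

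Cathepsins are made as inactive proenzymes, tagged with mannose 6-phosphate, carried to the lysosome and activated there by removal of the propeptide. CTSC, also called dipeptidyl peptidase I, is an aminopeptidase that takes dipeptides off the ends of proteins and is best known for activating the serine proteases of neutrophil, mast cell and cytotoxic lymphocyte granules. CTSB, CTSL and CTSD are the abundant endopeptidases of most cells and have been studied in tumour invasion, also after secretion. Many lysosomal genes carry an E-box in their promoters through which the MiT/TFE factors, such as TFEB, act on them together.

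Values were log2, the base being read from their range. The array of MP2-mock cells and both arrays of cells with whole α2 shared 1 minimum (2.24), and MP2-α2Δ and MP2-α9α2 shared another (2.21), so the 3 and the 2 arrays were taken as normalised separately. A floor was set for each array at the 95th percentile over 107 probe sets of odorant receptors. It lay between 2.21 and 2.27, and anything lower was set to it when differences were computed. Taken over the 27320 probe sets that exceeded the floor on every array, the median was 6.88 to 6.89 on the 3 arrays and 7.69 to 7.72 on the other 2, so differences across the minima are given both as deposited and after centring each array on that median. Keratins of the line were high (KRT18 between 14.75 and 15.22), whereas EPCAM did not exceed the floor and CDH1 and KRT7 read at most 2.26 and 2.37. VIM read between 15.48 and 15.85. The 2 probe sets of ITGA2, the gene of α2, lay at the minimum on every array but the one labelled MP2-α2Δ, and read 3.28 and 7.28 on that one. By the study's account the construct does not carry the 3′ end of the transcript from which these probes were designed, so they do not check the labels, and population names below stand for those labels. The study also stated that its array analysis found no α2 expression in any of its cells. In contrast to that account, the readings on the MP2-α2Δ array were above its floor, and their source was not tested. With 1 array per population no value has an error from replicates, no p was computed, and the number of arrays limits the precision.

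The promoter of CTSC, the member that stood apart, is shown beside those of the 2 members whose upstream 250 bases held an E-box (CACGTG, in capitals). The sequences are those of RefSeq (GRCh38.p14), which gave windows for 6 of the 10 members, and run 5′ to 3′ on the strand of the gene up to the base before its start. They are chr11:88337737-88337986 (minus strand) for CTSC, chr20:45891085-45891334 (plus strand) for CTSA and chr11:1763928-1764177 (minus strand) for CTSD.
CTSC: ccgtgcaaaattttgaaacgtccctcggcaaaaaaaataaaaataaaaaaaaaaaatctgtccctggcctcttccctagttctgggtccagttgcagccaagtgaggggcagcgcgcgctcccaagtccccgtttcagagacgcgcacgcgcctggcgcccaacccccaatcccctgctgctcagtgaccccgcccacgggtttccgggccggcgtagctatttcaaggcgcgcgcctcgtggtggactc
CTSA: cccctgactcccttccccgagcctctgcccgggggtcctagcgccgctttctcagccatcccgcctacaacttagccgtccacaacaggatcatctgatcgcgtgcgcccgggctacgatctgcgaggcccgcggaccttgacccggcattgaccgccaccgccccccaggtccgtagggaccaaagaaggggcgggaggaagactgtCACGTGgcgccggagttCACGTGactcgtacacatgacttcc
CTSD: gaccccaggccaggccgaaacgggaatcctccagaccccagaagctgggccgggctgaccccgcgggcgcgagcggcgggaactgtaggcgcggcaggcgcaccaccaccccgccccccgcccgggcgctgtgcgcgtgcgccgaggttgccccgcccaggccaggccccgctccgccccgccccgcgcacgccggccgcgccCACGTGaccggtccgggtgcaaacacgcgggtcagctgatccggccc

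CACGTG, which reads the same on both strands, was found in 2 of the 6 members with a window, CTSA and CTSD, and in 6.34% of all 35116 windows of this length. In CTSA it began 42 and 25 bases before the gene start, and in CTSD 47 bases before it. The longer TCACGTGA, the core of the lysosomal CLEAR element and itself holding CACGTG, was found in CTSA among the members and in 0.854% of all windows. The windows of CTSC, CTSH, CTSL and CTSZ held neither. These are matches of letters, and binding was not measured.

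CTSC was the member with the widest range over the arrays. By its brightest probe set, the one with the highest mean, it read 12.62 in MP2-mock cells, 8.37 in MP2-α2/TC cells, 8.88 in MP2-α2/CI cells, 8.60 in MP2-α2Δ cells and 8.88 in MP2-α9α2 cells. MP2-mock thus stood alone at the top and the 4 integrin-transfected populations lay between 8.37 and 8.88 as deposited. Against MP2-mock the log2 difference was -4.25 in MP2-α2/TC cells, 19-fold lower, and -3.74 in MP2-α2/CI cells, 13.3-fold lower. Across the minima it was -4.02 in MP2-α2Δ cells and -3.73 in MP2-α9α2 cells as deposited, and -4.86 and -4.54 after centring.

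The other CTSC probe sets gave the same order of MP2-mock over the rest. The second probe set read 12.09 in MP2-mock cells, 7.85 in MP2-α2/TC cells, 8.42 in MP2-α2/CI cells, 7.97 in MP2-α2Δ cells and 7.56 in MP2-α9α2 cells. The third read 11.17, 7.12, 7.82, 7.63 and 8.65 in the same order of populations. The dimmest read 5.75 in MP2-mock and no more than 2.37 elsewhere, where the floors were 2.21 to 2.27, so its differences are compressed or bounds (at least 11.3-fold lower in MP2-α2/TC cells). Among all 29885 probe sets above the floor on either array, the 4 held places 2, 3, 4 and 6 from the lowest difference of MP2-α2/TC from MP2-mock cells, as a description of the values on which CTSC was chosen.

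Among the integrin-transfected populations the CTSC differences were small or were not shared by the probe sets. For MP2-α2/CI over MP2-α2/TC cells they were 0.51, 0.57 and 0.70 by the 3 bright probe sets, 1.43-fold to 1.63-fold higher on collagenI. The gene lay at place 12605 of 12647 from the lowest in that comparison, without reaching 2-fold. The study reported more α2 and more surface β1 in the cells on collagenI, so substrate and α2 level cannot be told apart here. For MP2-α2Δ over MP2-α9α2 the same probe sets differed by -0.29, 0.41 and -1.02. They disagreed in sign, and no order of these populations in CTSC can be read from them. Differences of MP2-α2/TC and MP2-α2/CI from MP2-mock cells share the MP2-mock array, as do those of MP2-α2Δ and MP2-α9α2 cells, and so are not independent of each other.

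**Figure D1:**
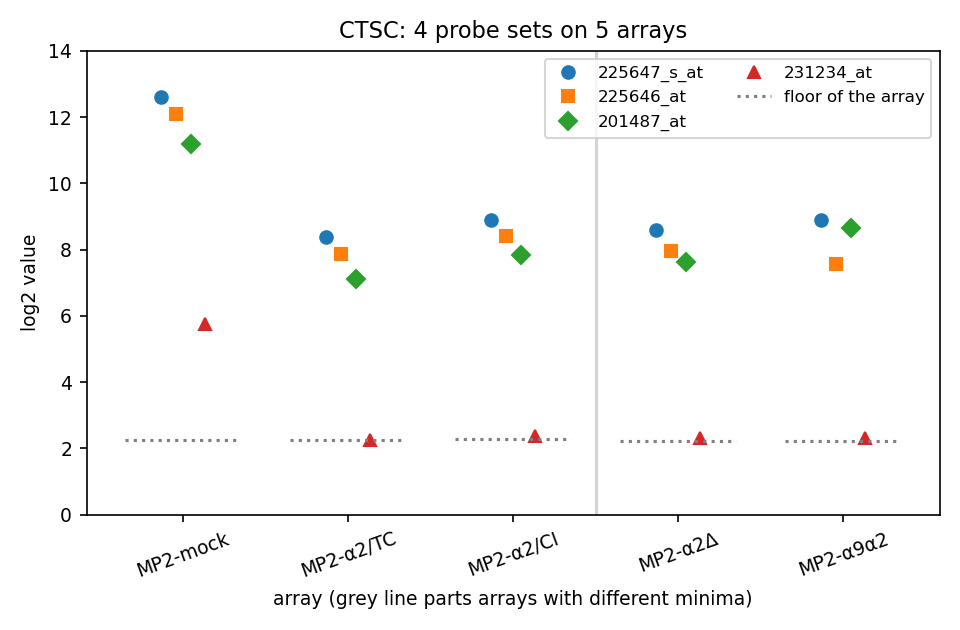
Log2 values (y axis) of the 4 CTSC probe sets, 1 point per probe set and array (x axis), with the floor of each array dotted and a grey line between arrays with different minima. The 3 bright probe sets lie between 11.17 and 12.62 in MP2-mock cells and between 7.12 and 8.88 in the 4 others.

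Of the 10 members, 9 were above the floor, and in both comparisons with MP2-mock cells that share its minimum CTSC was the 1 member at least 2-fold lower, which its choice had fixed. Over all genes, each taken by its brightest probe set, 0.378% were at least 2-fold below MP2-mock in MP2-α2/TC cells and 0.389% in MP2-α2/CI cells. None of the 9 was at least 2-fold higher, against 0.292% and 0.262% of all genes. None was 2-fold apart for MP2-α2/CI over MP2-α2/TC cells, where 0.0395% of all genes were higher and 0.15% lower. Against shares this small, 0 of 9 is no result about the members. The median over the 9 members was -0.12 in MP2-α2/TC cells and -0.12 in MP2-α2/CI cells, beside 0 for all genes in either comparison.

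CTSL, CTSD and CTSA differed little from MP2-mock cells on the α2 arrays. CTSL, a collagen- and elastin-degrading endopeptidase, read 12.26 in MP2-mock cells, 11.83 in MP2-α2/TC cells and 11.83 in MP2-α2/CI cells, a difference of -0.43 and the largest among the members after CTSC. CTSD read 11.07, 10.86 and 10.79 on these arrays, and CTSA, which also protects β-galactosidase and neuraminidase in the lysosome, 12.71, 12.59 and 12.59. All 3 read highest in MP2-mock cells, by at most 1.35-fold.

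CTSB, an endopeptidase that can also act as a carboxydipeptidase, read 12.14 in MP2-mock cells, 12.16 in MP2-α2/TC cells and 12.22 in MP2-α2/CI cells by its brightest probe set. Its other probe sets differed from MP2-mock by between -0.04 and 0.05 on the α2 arrays. CTSH, an aminopeptidase, read 8.60 in MP2-mock cells and 8.42 with α2 on either substrate. CTSZ, a carboxypeptidase also known as cathepsin X, read 8.41, 8.39 and 8.48, and LGMN, which cleaves after asparagine and processes other cathepsins, 8.94, 8.94 and 8.96. The second CTSZ probe set was dim and read 3.39 on all 3 arrays. These differences were at most 1.13-fold. CTSO, a little-studied cysteine cathepsin, read 2.63 on all 3 arrays, close to the floor. CTSS, the cathepsin of antigen-presenting cells, lay at the array minimum by all 3 of its probe sets on all 5 arrays, so no difference was taken.

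Many of these values were the same number on several arrays. Of the 16 member probe sets that exceeded the floor on every array, 3 had identical values (within 1e-06) on the 3 arrays with the higher minimum, and 2 on the MP2-α2Δ and MP2-α9α2 arrays. CTSL and CTSH also differed by 0 between the MP2-α2/TC and MP2-α2/CI arrays. Over the 27320 probe sets above every floor, the median difference was 0 in each pair of arrays with a shared minimum. The part of the normalisation in such differences of 0 was not tested.

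Between the 2 constructs none of the 9 members was at least 2-fold apart by its brightest probe set, where MP2-α2Δ cells exceeded MP2-α9α2 cells by 2-fold or more in 10.1% of all genes and fell short of them by as much in 4.97%. CTSH came nearest, at 9.57 in MP2-α2Δ cells and 8.64 in MP2-α9α2 cells, 1.91-fold higher. CTSA read 12.40 and 12.92, a difference of -0.53. CTSL read 10.98 and 11.37, a difference of -0.38, and CTSZ 8.37 and 8.03, a difference of 0.34. CTSD (9.08 and 9.26), LGMN (10.50 and 10.41) and CTSO (4.75 on both) differed by at most 1.13-fold. The 5 probe sets of CTSB differed by between -0.40 and 0.39, with 4 below 0 and 1 above it. The median over the 9 members was -0.17, beside 0 for all genes.

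**Figure D2:**
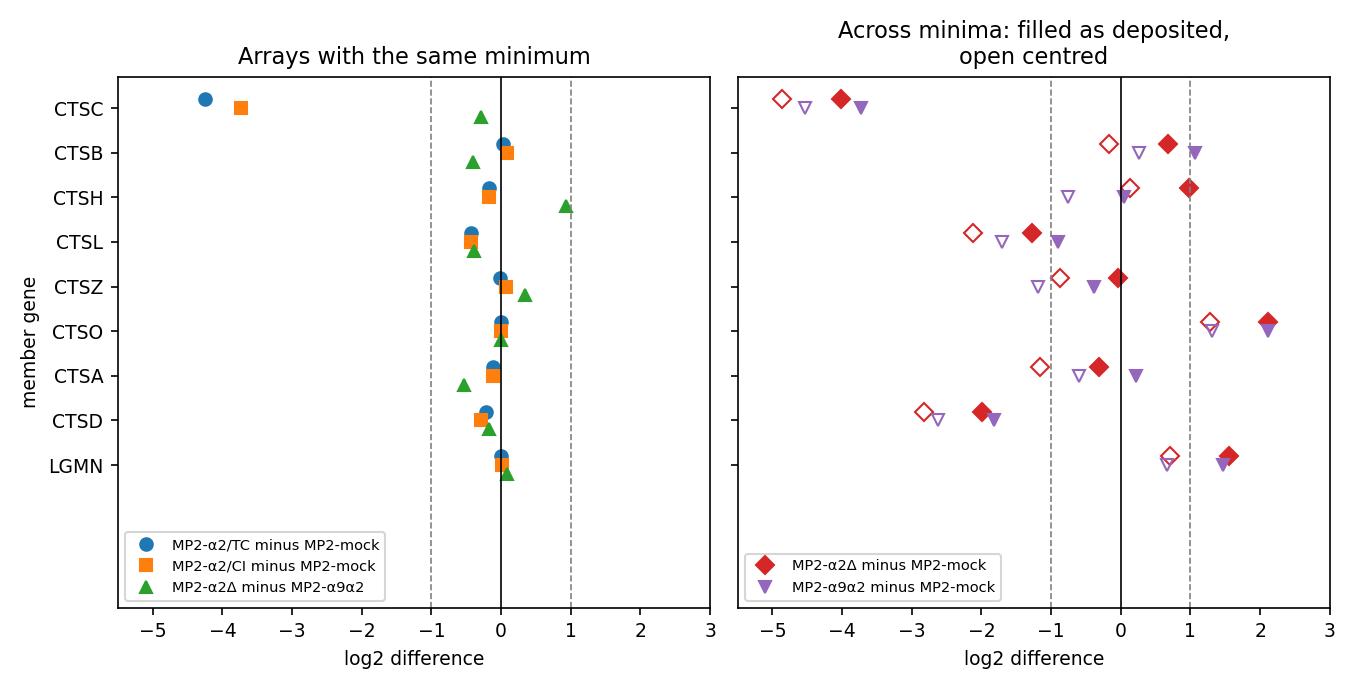
Log2 differences (x axis) of the 9 members above the floor (y axis), by the brightest probe set of each, between arrays with the same minimum (left) and across the minima (right, filled as deposited and open after centring), with dashed lines at 2-fold. CTSC lies at -4.25 and -3.74 on the left, and every other point of that panel lies within the dashed lines.

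Across the minima, where levels depend on the scaling, the members differed from MP2-mock cells in either direction. As deposited, the median over all genes was 0.37 for MP2-α2Δ and 0.33 for MP2-α9α2 over MP2-mock cells. It was -0.47 and -0.48 after centring, and -0.02 and -0.01 after quantile normalisation. Each difference is to be read beside the median of its own scaling, and the source of these medians was not tested. CTSD was lower in both, at 9.08 and 9.26 against 11.07 in MP2-mock cells, with differences of -1.99 and -1.82 as deposited, -2.83 and -2.62 after centring, and -2.66 and -2.48 after quantile normalisation. CTSL was also lower, with differences of -1.28 and -0.89 as deposited and of -2.12 and -1.70 after centring. The signs of these 2 genes held under all 3 scalings, as did the sign of CTSC. The set of arrays and the construct differ together in these comparisons and cannot be told apart under any scaling.

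CTSO and LGMN read higher in the same populations. CTSO was 4.75 on both arrays against 2.63 in MP2-mock cells, a difference of 2.12 as deposited and of 1.27 and 1.31 after centring, although its MP2-mock value lay near the floor. With a floor of 4 on every array its difference was 0.75 in both, under 2-fold. LGMN was higher by 1.55 in MP2-α2Δ cells and 1.47 in MP2-α9α2 cells as deposited and by 0.71 and 0.66 after centring. For CTSB the brightest probe set gave 0.67 and 1.07 as deposited but -0.17 and 0.27 after centring, so its direction in MP2-α2Δ cells turned with the scale, while its 4 other probe sets stayed above 0 there. CTSH and CTSA in MP2-α9α2 cells also turned, from 0.04 to -0.76 and from 0.21 to -0.59, respectively. By its brightest probe set CTSZ was lower under each scaling, with differences of -0.04 and -0.38 as deposited and -0.88 and -1.18 after centring. Its second probe set, at 3.39 in MP2-mock cells and 2.72 with both constructs, was also lower. That probe set differed by -0.68 in both as deposited, and by -1.52 and -1.48 after centring.

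As deposited, 2 of the 9 members (CTSO and LGMN) exceeded MP2-mock by at least 2-fold in MP2-α2Δ cells, beside 30.2% of all genes, and 3 were lower by as much (CTSC, CTSL and CTSD), beside 6.91%. CTSB was not counted there at 0.67 by its brightest probe set, whereas its other probe sets gave 1.5, 1.13, 1.06 and 0.92. In MP2-α9α2 cells 3 were higher (CTSB, CTSO and LGMN), beside 31.7% of all genes, and 2 were lower (CTSC and CTSD), beside 11%. The balance of these shares changed with the scale. Of all genes at least 2-fold apart from MP2-mock, 81.4% were higher in MP2-α2Δ cells as deposited, 32.8% after centring and 46.1% after quantile normalisation. For MP2-α9α2 cells these shares were 74.2%, 36.5% and 46.6%. After centring, 1 member was higher in MP2-α2Δ cells (CTSO), beside 11.4% of all genes, and 4 were lower (CTSC, CTSL, CTSA and CTSD), beside 23.3%. In MP2-α9α2 cells 1 was higher after centring (CTSO), beside 14.9%, and 4 were lower (CTSC, CTSL, CTSZ and CTSD), beside 25.8%.

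The other lysosomal genes differed little from MP2-mock cells on the α2 arrays. None of 30 measured lysosomal hydrolases, 16 lysosomal membrane proteins, 18 subunits of the vacuolar proton pump, which acidifies the lysosome, and 17 genes of lysosomal sorting was at least 2-fold apart from MP2-mock on either α2 array. With the shares of all genes given above all under 1%, this count is near the background and is no result about these lists. Their medians lay between -0.05 and 0, beside 0 for all genes. Over these 4 lists the differences ran from -0.34 to 0.32 in MP2-α2/TC and from -0.54 to 0.52 in MP2-α2/CI cells. TFEB and MITF, which were dim, and TFE3, which read 10.83 on all 3 arrays, differed from MP2-mock by at most 0.0025. TFEC was at the minimum.

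The cathepsins outside the 10 differed as little on these arrays. CTSV, a close relative of CTSL, read 10.33 in MP2-mock cells, 10.28 in MP2-α2/TC cells and 10.27 in MP2-α2/CI cells. CTSK, the collagenase of osteoclasts, read 5.18 on these 3 arrays, and of the 2 constructs it read 3.25 in MP2-α2Δ cells and 3.84 in MP2-α9α2 cells. CTSF, CTSG and CTSW did not exceed the floor on any array, and CTSE read at most 2.31. Of the cystatins and other protease inhibitors listed, 6 were above the floor on the α2 arrays or in MP2-mock cells, and none was 2-fold apart between them. The largest difference was that of SERPINB8, a serpin, which read 9.84 in MP2-mock cells, 9.28 in MP2-α2/TC cells and 9.41 in MP2-α2/CI cells. CST3, the secreted cystatin C, read 12.31 in MP2-mock cells, 12.21 in MP2-α2/TC cells and 12.23 in MP2-α2/CI cells. In MP2-α2Δ cells it read 10.03 and in MP2-α9α2 cells 9.49, differences from MP2-mock of -2.28 and -2.82 as deposited and of -3.12 and -3.62 after centring. SERPINB1, another serpin, went the other way, by 2.6 and 2.1 as deposited and by 1.7 and 1.3 after centring. As deposited, 7 inhibitors could be compared. By at least 2-fold, 1 rose and 1 fell for MP2-α2Δ, beside 30.2% and 6.91% of all genes. For MP2-α9α2 1 rose and 2 fell, beside 31.7% and 11%. These counts are no result about the inhibitors. CSTB, the cytosolic cystatin B, differed by -0.07 and -0.09 from MP2-mock cells on the α2 arrays. For MP2-α2Δ over MP2-α9α2 CSTB differed by 0.73, the largest difference between the constructs among the inhibitors.

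The serine proteases that CTSC activates read at or near the floor in these cells. Of 12 such genes 11 had a probe set, 9 of these did not exceed the floor on any array, and GZMM and TPSAB1 read at most 2.28 and 2.26. Blood cells are a source of CTSC, and their markers also read low. Of 13 measured blood cell markers 9 did not exceed the floor on any array, among them PTPRC and LYZ, and the brightest, CD14, read 3.36 in MP2-mock cells, 3.38 in MP2-α2/TC cells and 3.36 in MP2-α2/CI cells. The sum of their log2 values was 30.29, 30.39 and 30.29 on these arrays and 29.40 on both others, sums of values mostly at or near the floor of each array. The part of blood cells in the CTSC values was not tested. Of 7 fibroblast markers COL3A1, DCN, LUM and PDGFRA did not exceed the floor, and PDGFRB read at most 2.24. COL1A1 read between 7.18 and 8.11 and COL1A2 between 11.97 and 13.08.

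Between the constructs the lysosomal lists spread more widely, as did all genes, of which 10.1% were higher and 4.97% lower by 2-fold or more in MP2-α2Δ cells. The counts below are to be read against these shares, and nothing particular to a list is drawn from them. NEU1, the lysosomal neuraminidase that CTSA protects, read 8.78 in MP2-α2Δ cells and lay at the array minimum on the 4 other arrays by its only probe set, at least 95.3-fold higher than in MP2-α9α2 cells. CTSA itself read 12.40 and 12.92 there. Among the hydrolases GLA, the α-galactosidase, was also higher in MP2-α2Δ cells, by 1.48, and GM2A and CPVL were lower, each with a difference of -1.32. In all, 2 of 31 hydrolases were higher by 2-fold or more and 2 lower, and their median was -0.14. Of 18 pump subunits 3 were higher and none lower. They were ATP6V0B (11.59 against 9.99), ATP6V0C (10.79 against 9.55) and ATP6V1G1 (12.35 against 11.17).

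Of 17 sorting genes 3 were higher by 2-fold or more and 1 lower in MP2-α2Δ cells, set against MP2-α9α2, beside the same 10.1% and 4.97% of all genes. GNPTAB and GNPTG, which encode subunits of the enzyme that begins the mannose 6-phosphate tag, went in opposite directions, at 10.16 against 11.48 and 8.56 against 7.19. AP1S1, of a clathrin adaptor, was higher by 1.64 and VPS29, of the retromer, by 1.01. Among 17 membrane proteins NPC1, the cholesterol exporter, was lower, with a difference of -1.08, and none was 2-fold higher. MITF was lower, at 5.05 against 6.48, a difference of -1.44.

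**Figure D3:**
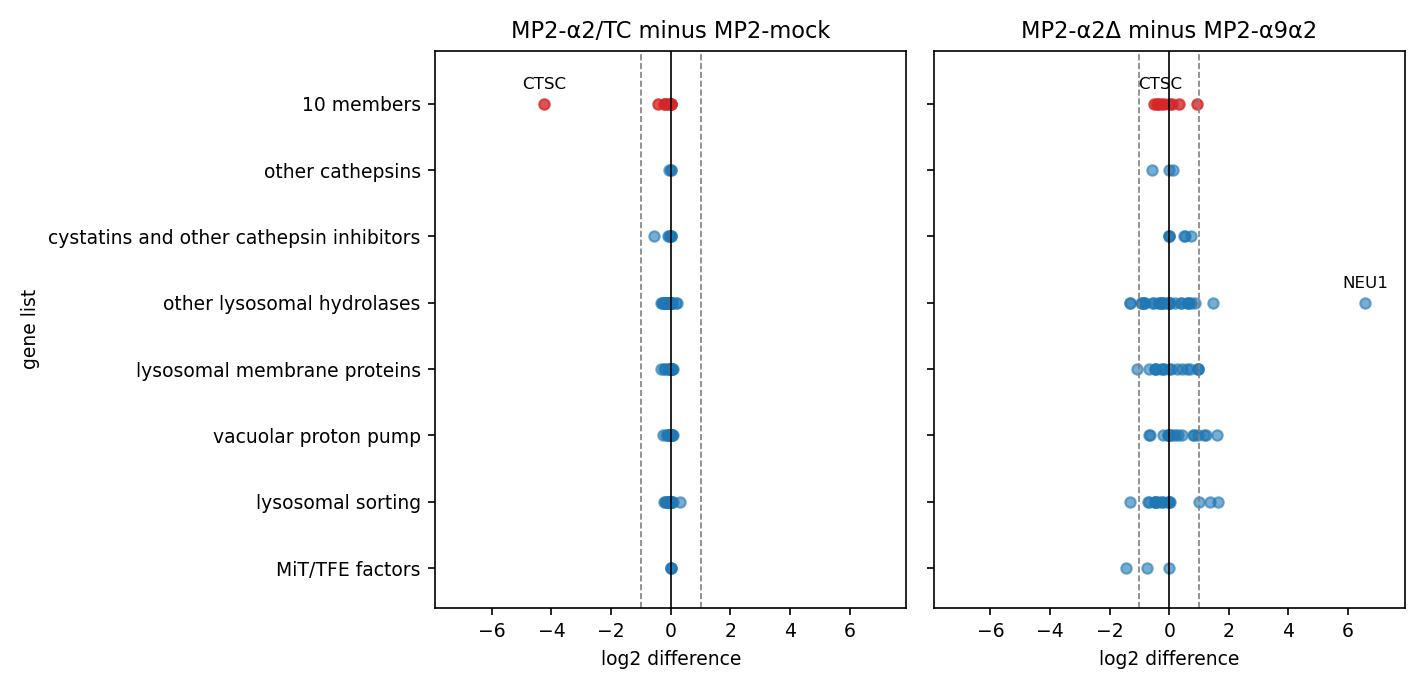
Log2 differences (x axis) of each gene above the floor in the members (red) and in the other lysosomal lists (blue, y axis), for MP2-α2/TC over MP2-mock cells (left) and MP2-α2Δ over MP2-α9α2 cells (right), with dashed lines at 2-fold. On the left CTSC at -4.25 is the only point outside the lines, and on the right NEU1 lies at 6.57, a bound.

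The genes nearest to CTSC in pattern were sought over the 5 arrays, by the Euclidean distance between centred values after the mean of each probe set was taken off, among 26700 probe sets with 1 gene. The other 3 CTSC probe sets lay at distances of 0.57, 0.72 and 0.92 (log2). The nearest other genes were HKDC1, a hexokinase domain protein, at 1.26, PDZK1IP1, a small membrane protein, at 1.37, the NF-κB subunit RELB at 1.85, the interferon-induced virus tether BST2 at 1.93 and the protocadherin PCDH9 at 2.0. As CTSC was the query over all 5 arrays, the order of the arrays in these genes, MP2-mock cells at the top included, is a result of the search.

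HKDC1 read 10.54 in MP2-mock cells, 6.78 in MP2-α2/TC cells, 7.43 in MP2-α2/CI cells, 7.87 in MP2-α2Δ cells and 8.33 in MP2-α9α2 cells. Its other 3 probe sets were dimmer, and 1 of them read 4.71 in MP2-mock but 5.22 and 5.17 in the last 2 populations, against the pattern. PDZK1IP1 read 10.41, 7.29, 7.74, 8.26 and 7.35, with a second probe set at 10.03, 7.20, 7.44, 8.90 and 7.23. RELB read 6.71, 4.47, 5.18, 3.41 and 3.86 in the same order of populations. By the brightest probe set of each, HKDC1, PDZK1IP1, RELB and BST2 read 1.57-fold, 1.36-fold, 1.63-fold and 1.17-fold less on plastic than on collagenI. The search favoured this order, and PCDH9 read 4.73 on both substrates. A pair of dimmer HKDC1 probe sets read the same on both, at 2.54 and 3.04. BST2 was the only one of the 5 with a larger difference from MP2-mock than CTSC, 59.5-fold lower in MP2-α2/TC cells. PCDH9 read 6.52 in MP2-mock cells and 4.73 to 4.86 elsewhere by 1 probe set, and at most 2.35 by its other 3.

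**Figure D4:**
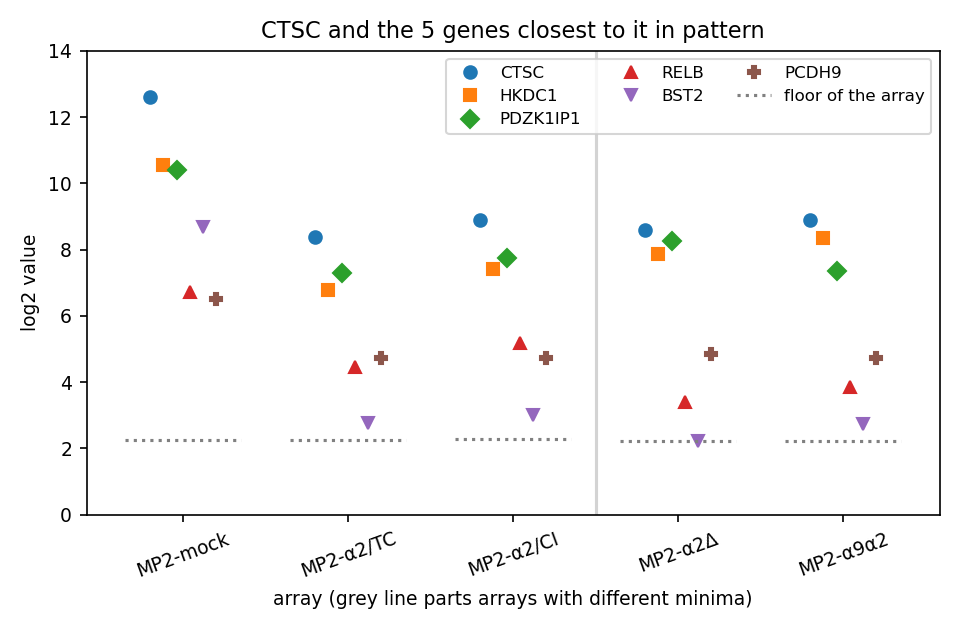
Log2 values (y axis) of CTSC and the 5 genes nearest to it in pattern, by the probe set that was nearest, 1 point per gene and array (x axis), with the floor of each array dotted. Every gene is highest in MP2-mock cells, which the search fixed, and BST2 falls to between 2.22 and 3.00 in the 4 others.

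The genes beside CTSC on chromosome 11 that had a probe set showed no signal. Of the 3 annotated genes on either side, RAB38 and the lncRNA LOC101929174 had a probe set, and both lay at the array minimum on all 5 arrays. MTCYBP41, MIR3166, GAPDHP70 and GRM5-AS1 had none assigned to them alone.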

How the data were processed

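Expression was measured in MIAPaCa2 cells with 1 Affymetrix array for each of 5 populations. For each probe set the authors deposited a normalized value, taken as log2 because of its range. GCRMA and MAS5 are named in the submitters' processing notes, their roles and versions being not given in the sources used here. Sets of arrays normalized together were inferred from shared minima, and background correction can compress low values. Of 54675 probe sets, 62 controls were left out. Of the rest, 41091 carried 1 gene symbol, brought up to date through RefSeq gene identifiers, 1801 several and 11721 none. Values were raised to a floor on each array (95th percentile of 107 odorant receptor probe sets), and differences were taken for 6 pairs of arrays with Python 3.11.15, pandas 2.3.3 and numpy 2.4.6. A probe set under the floor on both arrays of a pair was left out. A gene was counted by its brightest probe set on average, and 2-fold was the threshold. Genes were named as all members, up to 4 genes of each other list at least 2-fold apart between arrays with a shared minimum or else the most different one, the 5 nearest to CTSC and its 3 neighbours on each side. Others, such as CST3, were named after their values were seen to describe a list. The members and lists were chosen with earlier results of these data known. The functions were tested on simulated data. Alternatives were another floor or none, centring, quantile normalization, the mean of a gene's probe sets, omission of probe sets ending in _x_at or _s_at, and 1.5-fold or 3-fold.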

Additional observations from a re-analysis of the deposited data

How the results depend on the processing

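The CTSC difference kept its sign against MP2-mock cells under all 6 alternatives that apply to it, between -4.25 and -4.01 in MP2-α2/TC cells, -3.75 and -3.53 in MP2-α2/CI cells, -4.86 and -3.78 in MP2-α2Δ cells, and -4.54 and -3.55 in MP2-α9α2 cells. Values that moved by 0.1 or more were, for MP2-α2/TC over MP2-mock, -4.14 after quantile normalization and -4.01 with the mean of the probe sets, and for MP2-α2/CI over MP2-mock -3.53 with that mean. For MP2-α2Δ over MP2-mock they were -4.86 after centring, -4.68 after quantile normalization, -3.78 with the mean and -4.12 without _x_at and _s_at probe sets, and for MP2-α9α2 over MP2-mock -4.54, -4.38, -3.55 and -4.53, respectively. For MP2-α2Δ over MP2-α9α2 CTSC differed by 0.41 without those probe sets, since another probe set then stood for the gene.

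Counts of members kept within 1.5 times in 85 of 96 alternatives. At 1.5-fold, MP2-α2Δ cells were higher than MP2-α9α2 in 1 member and than MP2-mock in 4. Members higher in MP2-α2Δ cells over MP2-mock numbered 1 with a floor at 4, where CTSO was lost at 0.75, after centring, after quantile normalization and at 3-fold. They numbered 3 with the mean of the probe sets and without _x_at and _s_at probe sets. For MP2-α9α2 over MP2-mock cells 1 was higher after centring, after quantile normalization and at 3-fold, and 4 were lower after centring and after quantile normalization. No shares of all genes are given for these settings except centring, so the counts are no result about the members. No difference of 2-fold or more changed sign.

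No paired analysis was possible because each population has 1 array. No array was left out for the same reason, and signal over the floor limits the values of CTSO and of the dim CTSC probe set.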
